A study of Mus musculus with 8 samples.

Results

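miR-191 and miR-425 are a pair of microRNAs (miRNAs) cut from neighbouring hairpins on mouse chromosome 9. Each hairpin gives a mature miRNA from its 5p arm and another from its 3p arm, so that the cluster has 4 members, mmu-miR-191-5p, mmu-miR-191-3p, mmu-miR-425-5p and mmu-miR-425-3p, written without the prefix from here on. They were taken by name from small-RNA sequencing of liver, with repeated rows of a name summed, and are 4 of the 1341 known mature miRNAs listed in the libraries. The libraries came from the left liver lobe of 4 Snd1 KO mice and 4 WT mice, 1 library per mouse. All were males on a C57BL/6N background, 8 to 12 weeks old, that had been fed and were sampled near midday. The KO mice carry a germline deletion of the first exon of Snd1, made by crossing a floxed line from targeted R1 embryonic stem cells of 129/Sv origin to mice with Cre under the CAG promoter, which acts in most cells. The deletion is therefore in every cell type of the liver. Small RNAs of 18 to 30 bases do not measure Snd1 mRNA, so the genotype labels could not be checked against the targeted gene.

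Levels are given in CPM, that is tags per 1000000 tags of the whole library, and are not divided by length. The libraries held from 16223610 to 27526162 tags, at which 1 tag was worth 0.0363 to 0.0616 CPM. The rarest member, miR-191-3p, had at least 578 tags in every library, so counting error was small beside the spread between mice. Known miRNAs made up 57.9 to 67.6% of the tags in 4 libraries (replicates 1 and 4 of KO with 3 and 4 of WT). They made up 75.9 to 78.7% in the remaining 4, which were replicates 2 and 3 of KO with 1 and 2 of WT. These are called the lower-share and higher-share libraries below. They were defined from these values, are not groups of the study, and each holds 2 mice of each genotype. The sets also differ in depth, with 16223610 to 24130669 tags in the lower-share and 24519879 to 27526162 tags in the higher-share libraries. Differences between the sets cannot be told apart from depth. The values of KO replicate 1 include no genomic classes and sum to 648120 CPM, against 999999 to 1000000 CPM in the other 7 libraries, and its known miRNA share, the lowest, is taken over 1000000 as in the others. The summed endothelial markers (miR-126a-3p and miR-126a-5p) were 5812 to 6653 CPM in the lower-share libraries and 12518 to 19516 CPM in the higher-share libraries. The summed hepatocyte markers, miR-122 among them, were 252801 to 384155 CPM in KO and 246362 to 375865 CPM in WT, and were abundant in every library. By set they were 246362 to 299656 CPM in the lower-share and 328691 to 384155 CPM in the higher-share libraries. They are themselves a large part of the known miRNA tags by which the sets were split. All 6 cell type marker sums overlapped between the genotypes. The leukocyte sum is mostly miR-146a-5p (mean 1157 CPM) and the mesenchymal sum mostly miR-143-3p (mean 6617 CPM), so they say little about their rarer members. Among the leukocyte markers the KO to WT log2 fold change was -0.80 for miR-223-3p, -0.61 for miR-142a-3p and -0.71 for miR-142a-5p. It was -0.18 for miR-155-5p, 0.03 for miR-146a-5p and 1.74 for miR-150-5p, and none of them was called.

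An miRNA precursor is cut by Drosha in the nucleus and by Dicer in the cytoplasm, and an Argonaute protein keeps 1 arm of the resulting duplex, the guide, while the other is mostly degraded. The guide finds its targets through its seed, the bases 2 to 8. The miR-191 and miR-425 hairpins are made from a common transcript, and both 5p arms are found in most tissues, where they are often used as reference miRNAs in quantitative PCR. In human breast cancer cells miR-191 is known as an oestrogen-responsive miRNA, and human miR-425-5p as a repressor of the atrial natriuretic peptide mRNA. Snd1, or Tudor-SN, is a nuclease and a component of the RNA-induced silencing complex that can cut mature miRNAs at CA and UA dinucleotides away from their ends.

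The mature sequences are shown to compare the 4 seeds, which are in capitals. They are from RefSeq (mouse build GRCm38.p6), where all 4 members were found, and all lie on the plus strand.
miR-191-5p: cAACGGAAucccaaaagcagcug
miR-191-3p: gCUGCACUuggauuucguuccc
miR-425-5p: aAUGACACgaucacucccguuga
miR-425-3p: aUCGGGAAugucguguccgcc

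The 4 seeds differ, so the cluster carries 4 separate target specificities. Among 1679 mature mouse miRNAs of RefSeq, miR-489-3p alone shares a seed with a member, that of miR-425-5p. Internal CA or UA dinucleotides, with at least 5 bases on either side, numbered 1 in miR-191-5p and 2 in miR-425-5p, and none were found in either 3p arm. Of the 402 tested miRNAs with a RefSeq sequence, 79.6% hold at least 1. The GC content ran from 47.8% in miR-425-5p to 61.9% in miR-425-3p, beside a median of 50% over the 402.

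miR-191-5p lies at chr9:108568325-108568347 and miR-191-3p at chr9:108568367-108568388, within the 74-base Mir191 hairpin. miR-425-5p lies at chr9:108568789-108568811 and miR-425-3p at chr9:108568830-108568850, within the 85-base Mir425 hairpin. The hairpins are 384 bases apart. Folded with RNAfold, they had minimum free energies of -35.0 kcal/mol (Mir191) and -31.7 kcal/mol (Mir425), with 17 and 14 base pairs between the mature arms. In the GENCODE M21 annotation of GRCm38 both hairpins are inside the single exon of 4833445I07Rik-201, a long non-coding RNA. In the shorter transcript 4833445I07Rik-202, Mir191 is intronic and Mir425 begins just after the last exon. Dalrd3 begins 1025 bases downstream on the same strand. A predicted miRNA gene, Gm24083, overlaps Mir191 on the opposite strand, and whether strand was used in counting is not given in the sources used here.

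The 4 members differed widely in level. miR-191-5p was by far the most abundant and ranked 14 among the 475 miRNAs tested (at least 1 CPM in at least 4 libraries; all 4 members passed), with 1.60% of the known miRNA tags. miR-425-5p ranked 64, miR-425-3p 169 and miR-191-3p 182. miR-425-3p was above miR-191-3p in mean level, but their ranges over the 8 libraries overlapped (37.1 to 70.6 CPM and 27.1 to 41.2 CPM), so the ranges did not separate the 3p arms. Within a library miR-425-3p was the higher in all but KO replicate 3 (37.1 against 39.1 CPM), and was nearly equal in KO replicate 2 (40.4 against 40.1 CPM). The other neighbours in the order did not overlap.

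The comparison of Snd1 KO with WT liver asked whether loss of Snd1 changed the mature miRNAs. None of the 4 members changed beyond the spread between mice. miR-191-5p had 13769, 8812, 8846 and 12976 CPM in the KO livers, against 8715, 10094, 13915 and 13098 CPM in the WT livers. Each genotype held 2 libraries at or above 12976 CPM and 2 at or below 10094 CPM, and the groups overlapped throughout. The means were 11101 ± 2643 CPM in KO and 11456 ± 2457 CPM in WT (SD, n = 4 each), a log2 fold change of -0.05 (SE 0.25, 95% interval -0.60 to 0.50, limma adjusted p = 0.971).

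miR-191-3p, the arm opposite it in the duplex, had 27.1, 40.1, 39.1 and 29.7 CPM in the KO livers, against 39.2, 27.7, 41.2 and 30.9 CPM in the WT livers. All KO values but that of replicate 1, just under the lowest WT value, lay within the WT range. Its log2 fold change was -0.03 (SE 0.29, 95% interval -0.68 to 0.62, limma adjusted p = 0.979).

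miR-425-5p had 472.4, 348.8, 427.6 and 408.2 CPM in the KO livers, against 406.3, 466.1, 546.6 and 712.2 CPM in the WT livers. WT replicates 3 and 4 stood above all KO livers and the others overlapped. The means were 414.3 ± 51.3 CPM in KO and 532.8 ± 133 CPM in WT (SD, n = 4 each), with a log2 fold change of -0.34 (SE 0.26, 95% interval -0.93 to 0.25, limma adjusted p = 0.853).

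miR-425-3p had 46.1, 40.4, 37.1 and 45.7 CPM in the KO livers, against 46.4, 45.2, 70.6 and 52.0 CPM in the WT livers. KO replicates 1 and 4 lay within the WT range, and the highest WT value was that of replicate 3, not of replicate 4 as for its partner arm. Its log2 fold change was -0.32 (SE 0.28, 95% interval -0.94 to 0.30, limma adjusted p = 0.882).

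Of the members, 0 of 4 were called at an adjusted p of 0.05 and 0 of 4 had an unadjusted p under 0.05, beside 0 of 475 (0%) and 20 of 475 (4.21%) of all tested miRNAs by limma. None had KO values all above or all below WT, a separation that 6 (1.26%) and 8 (1.68%) of the 475 showed. The median log2 fold change over all 475 was -0.11. In the lower-share libraries the KO minus WT difference, 2 mice against 2, was -0.01 for miR-191-5p, -0.32 for miR-191-3p, -0.51 for miR-425-5p and -0.39 for miR-425-3p on the log2 scale. In the higher-share libraries it was -0.09, 0.26, -0.17 and -0.24 in the same order. Both miR-425 arms were thus lower in KO within either set of libraries, and miR-191-3p differed in sign between them. With the library set as a covariate, the limma adjusted p was 0.440 for miR-425-5p and 0.495 for miR-425-3p, in a fit where 65 of the 475 had an unadjusted p under 0.05.

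**Figure D1:**
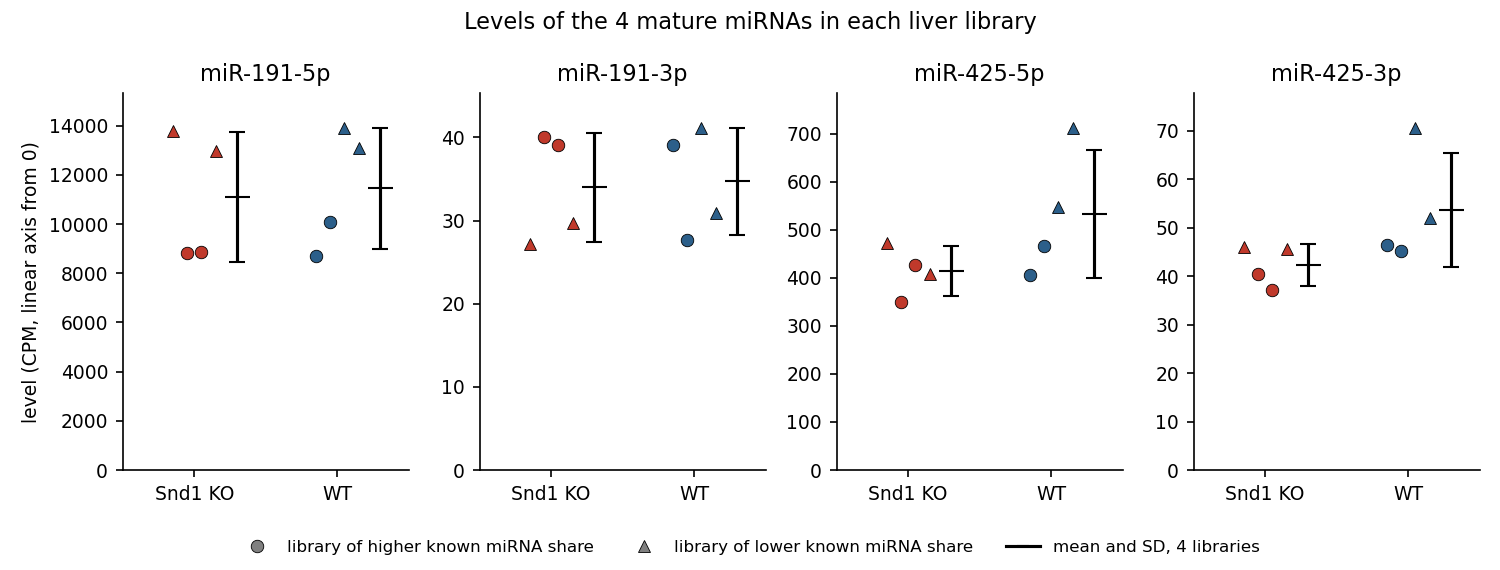
Level of each member in CPM (linear axes from 0), 1 point per liver library, with Snd1 KO left of WT and the mean and SD of 4 libraries as a bar. Circles are higher-share and triangles lower-share libraries; in miR-191-5p the triangles sit at or above 12976 CPM and the circles at or below 10094 CPM in both genotypes.

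The ratio of the arms of a hairpin is formed within a library and does not depend on its scaling. miR-191-5p exceeded miR-191-3p from 219.7-fold in KO replicate 2 to 507.5-fold in KO replicate 1. On the log2 scale the ratio was 8.99, 7.78, 7.82 and 8.77 in the KO livers, against 7.80, 8.51, 8.40 and 8.73 in the WT livers. The highest and the lowest ratio were both from KO livers, and the groups overlapped. The means were 8.34 ± 0.63 in KO and 8.36 ± 0.40 in WT (SD, n = 4 each), a difference of -0.02 (SE 0.37; two-sided exact permutation p = 0.971, adjusted over the 3 ratios 0.971).

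miR-425 was less asymmetric, with a 5p excess of 7.74-fold in WT replicate 3 to 13.7-fold in WT replicate 4. The log2 ratio was 3.36, 3.11, 3.53 and 3.16 in the KO livers, against 3.13, 3.37, 2.95 and 3.78 in the WT livers. All 4 KO values lay inside the WT range. The means were 3.29 ± 0.19 in KO and 3.31 ± 0.36 in WT (SD, n = 4 each), a difference of -0.02 (SE 0.20; two-sided exact permutation p = 0.886, adjusted 0.971). With 4 livers against 4, the smallest p this test can give is 0.0286.

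The guide arms of the hairpins were set against each other in the same way. miR-191-5p exceeded miR-425-5p by 18.4-fold (WT replicate 4) to 31.8-fold (KO replicate 4). The log2 ratio was 4.87, 4.66, 4.37 and 4.99 in the KO livers, against 4.42, 4.44, 4.67 and 4.20 in the WT livers. KO replicates 1 and 4 were above all WT livers, and KO replicate 3 was below all but 1 of them. The means were 4.72 ± 0.27 in KO and 4.43 ± 0.19 in WT (SD, n = 4 each), and the difference of 0.29 (SE 0.17) did not pass the test (two-sided exact permutation p = 0.2, adjusted 0.6). It was 0.49 within the lower-share libraries and 0.09 within the higher-share libraries.

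**Figure D2:**
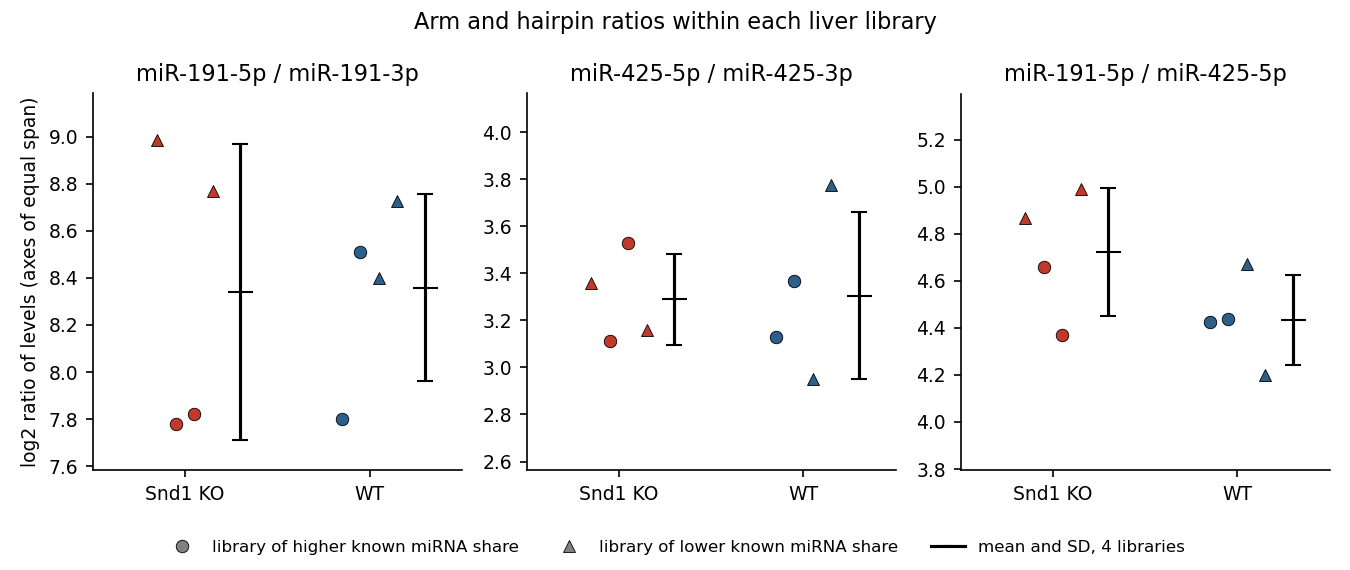
Log2 ratio of miR-191-5p to miR-191-3p, of miR-425-5p to miR-425-3p and of miR-191-5p to miR-425-5p in each library, Snd1 KO left of WT, with the mean and SD of 4 libraries; the axes span equal ranges and do not start at 0. The genotypes overlap in every panel, with differences of the means of -0.02, -0.02 and 0.29.

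Among the 125 hairpin names with both arms tested, miR-191 stood near the asymmetric end. Its median log2 ratio was 8.45, and 11 of the 125 had a larger ratio in favour of either arm, whereas 71 had a larger one than miR-425 (3.26). The median absolute log2 ratio over the 125 was 3.73, and the 5p arm was the higher in 72. The arm ratio of miR-425 was among the steadiest in these livers. Its SD over the 8 libraries was 0.27, and 123 of the 125 hairpin names had a larger one. The SD of miR-191 was 0.49 and was exceeded by 98, beside a median SD of 0.77. Some of the 125 have rare arms, whose ratio holds more counting error, such as miR-1934 (1.96 CPM for 5p and 0.87 CPM for 3p on average, SD 2.34). The comparison was not matched for level.

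**Figure D3:**
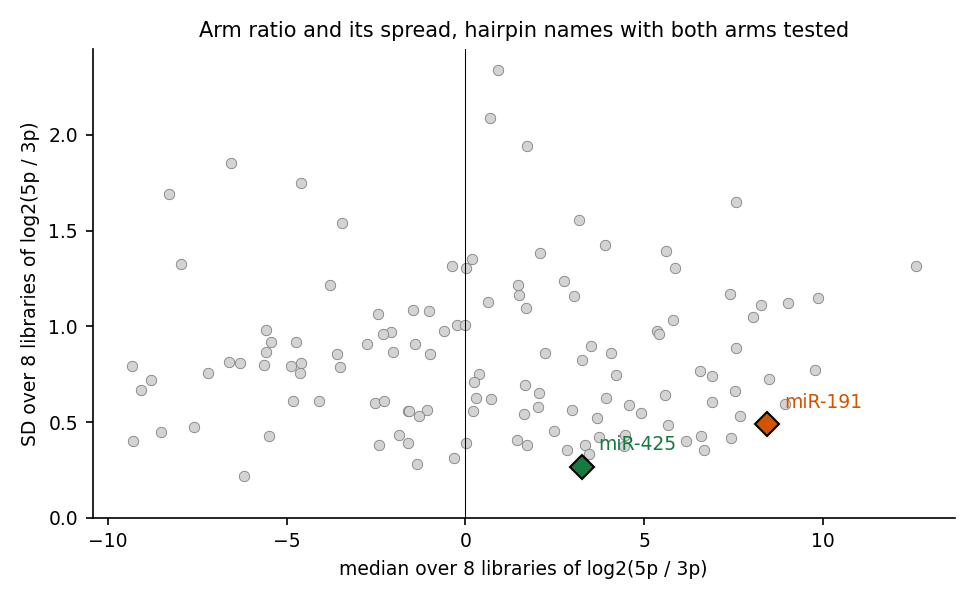
Median over 8 libraries of the log2 ratio of the 5p arm to the 3p arm (horizontal axis) against its SD over the 8 libraries (vertical axis) for 125 hairpin names, 1 point each. miR-425 lies near the floor at an SD of 0.27, and miR-191 lies far to the right at a median of 8.45.

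miR-191-5p differed between the library sets rather than between genotypes. It had 12976 to 13915 CPM in the lower-share libraries and 8715 to 10094 CPM in the higher-share libraries, a log2 difference of 0.56, and within a set its log2 SD was 0.05 (lower share) and 0.10 (higher share), beside 0.35 in KO and 0.32 in WT. The sets did not overlap, as for 100 of the 475 tested miRNAs (21.1%) that were all above in the lower-share libraries; 46 (9.68%) were all below. They stayed apart with median-ratio scaling, by 0.34. With scaling to the known miRNA tags the difference was 0.85, but that scaling divides by the quantity that defined the sets and could only widen it. miR-191-3p did not share this, with a log2 difference of -0.18 and overlapping sets. The arm ratio of miR-191 was 0.75 higher on the log2 scale in the lower-share libraries, with an overlap between WT replicates 2 and 3, and that of miR-425 differed by 0.03. Such a shift was not particular to miR-191, since 68 of the 125 hairpin names had a larger absolute difference in arm ratio between the sets. The hepatocyte, endothelial and erythroid marker sums also separated the sets, each in the direction opposite to miR-191-5p. The erythroid sum, mostly miR-451a (mean 11636 CPM), was 7363 to 9826 CPM in lower-share and 13338 to 17397 CPM in higher-share libraries. The leukocyte, mesenchymal and biliary sums overlapped, and the leukocyte and mesenchymal sums are each mostly a single miRNA. miR-122-5p alone averaged 276200 CPM, a large part of the known miRNA tags. The split by known miRNA share therefore partly fixed the separation of the hepatocyte sum in advance. The part of the marker sums in the level of miR-191-5p was not tested. In bulk liver, fewer cells of a type cannot be told apart from less miRNA per cell.

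Whether the hairpins of the common transcript varied together was examined over the 8 livers. miR-191-5p and miR-425-5p had a Pearson r of 0.64 (exact permutation p = 0.0825, adjusted over 6 pairs of members 0.247) and a Spearman rho of 0.83 (exact permutation p = 0.0154, adjusted 0.0923) on log2(CPM + 1). Because the miR-191-5p values fall into separate clusters, the library sets, the pooled r is a description, and each set of 4 libraries is too small for an r of its own. With the mean of each set subtracted r was 0.28 (permutation p = 0.488), and with the mean of each genotype subtracted it was 0.72 (permutation p = 0.0510). Both p-values are approximate, because pairings were permuted over all 8 libraries and not within the groups whose means were subtracted. Without KO replicate 2 and WT replicate 1, the libraries farthest from the median of miR-191-5p, r was 0.42, so the relation rested in part on them. The points also share a library total, and r was 0.19 with median-ratio scaling and 0.83 with scaling to the known miRNA tags.

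The other pairs behaved in different ways. miR-191-5p and miR-425-3p had r = 0.68 (exact permutation p = 0.0321, adjusted 0.193) and rho = 0.57, with 0.38 after subtraction of the set means. The arms of miR-425 had r = 0.60 (exact permutation p = 0.124, adjusted 0.249) and rho = 0.60. The arms of miR-191 had r = -0.47 (exact permutation p = 0.252, adjusted 0.377) and rho = -0.21. None of the 6 pairs passed an adjusted p of 0.05 on the CPM scale. With scaling to the known miRNA tags the 3 pairs among miR-191-5p, miR-425-5p and miR-425-3p passed (exact permutation adjusted p = 0.0321 for miR-191-5p with miR-425-3p and 0.0375 for the others). On that scale all 3 miRNAs were higher in every lower-share library than in any higher-share library. That scaling divides by the quantity that defined the sets, which raises every miRNA in the lower-share libraries relative to the higher-share libraries. These p-values therefore cannot tell joint variation of the members from the shared divisor. With median-ratio scaling none passed, and r was 0.36 for miR-191-5p with miR-425-3p and 0.09 for the miR-425 arms.

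**Figure D4:**
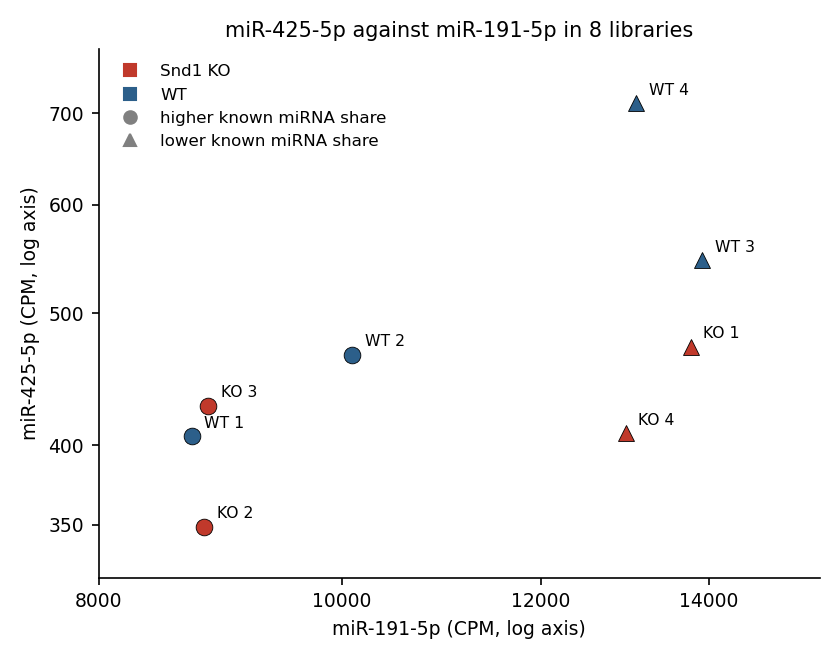
Level of miR-425-5p against miR-191-5p in 8 liver libraries, in CPM on log axes, with Snd1 KO in red, WT in blue, circles for higher-share and triangles for lower-share libraries. The points form a cluster of 4 circles on the left and of 4 triangles on the right, and the triangles spread from 408.2 to 712.2 CPM in miR-425-5p at nearly equal miR-191-5p.

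Other neighbouring hairpins gave a scale for this pair. They were 70 pairs on 1 strand within 10 kb, this pair included, each hairpin entered by the more abundant of its tested arms that belong to no other hairpin, so that some hairpins with a shared main arm, such as Mir24-1, entered by a minor one. The median r was 0.61 (quartiles 0.21 and 0.79), and 33 pairs had a higher r than miR-191-5p with miR-425-5p. After subtraction of the set means the median was 0.64 and 49 pairs were higher. In 63 of the pairs an arm was under 100 CPM on average, and 29 of the 70 were on chromosome 12. Of the 7 pairs with both arms at 100 CPM or more, a subset chosen after the data were seen, the median r was 0.24 and 2 were higher; after subtraction of the set means the median was 0.65 and 4 were higher. The log2 ratio of miR-191-5p to miR-425-5p nevertheless kept a small spread, with an SD of 0.27 over the 8 libraries, below which 6 of the 70 pairs fell, beside a median of 0.49. Among the 7 pairs with both arms at 100 CPM or more, miR-23a-3p with miR-27a-3p (0.22) and miR-25-3p with miR-93-5p (0.25) had a smaller SD. The remaining pairs of that subset had SDs of 0.43 to 0.86. A moderate r and a steady ratio thus stood side by side in 2 miRNAs that both varied little.

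The miRNAs most like miR-191-5p over the 8 libraries were miR-744-3p (r = 0.98), miR-574-5p (0.97), miR-7085-3p (0.96), let-7b-3p (0.96) and miR-331-3p (0.96). All 5 were higher in every lower-share library than in any higher-share library, as miR-191-5p was. miR-574-5p, for example, had 525.7 to 797.0 CPM in the lower-share libraries and 222.8 to 256.7 CPM in the higher-share libraries. Of 474 tested miRNAs ordered by r with miR-191-5p, miR-425-3p took place 138, miR-425-5p place 149 and miR-191-3p place 360, so the cluster partners were not near the top. The miRNAs most like miR-425-5p were miR-331-5p (r = 0.95), miR-365-3p (0.91), miR-1839-3p (0.90), miR-130a-3p (0.88) and miR-125b-2-3p (0.87), with miR-191-5p at place 57 and miR-425-3p at place 69. miR-331-5p was rare, at 0.40 to 1.15 CPM in KO and 0.61 to 1.92 CPM in WT, and miR-130a-3p had 180.2 to 275.5 CPM in KO and 185.3 to 361.4 CPM in WT.

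The spread of the members between livers was low. The SD of log2(CPM + 1) over the 8 libraries was 0.31 for miR-191-5p, 0.25 for miR-191-3p, 0.31 for miR-425-5p and 0.27 for miR-425-3p, beside a median of 0.53 over the 475 tested. Ordered from the lowest SD, they took places 65, 36, 68 and 48. For comparison, 12 other miRNAs often used as references, such as miR-16-5p and miR-103-3p, had SDs of 0.39 to 1.00 (median 0.58), and 0 of the 12 were below miR-191-5p or miR-425-5p. Among the 127 miRNAs with at least 100 CPM on average, miR-191-5p and miR-425-5p took places 22 and 23 on this scale. With median-ratio scaling their SDs were 0.22 and 0.20, places 4 and 1 of the 127, and again 0 of the 12 were below either. With scaling to the known miRNA tags, however, the SDs were 0.47 and 0.41, places 56 and 45 of the 127. There 6 and 5 of the 12 reference miRNAs had a lower one. The low spread of both 5p arms beside the reference miRNAs therefore held on 2 of the 3 scales, and not when the known miRNA tags were the denominator.

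**Figure D5:**
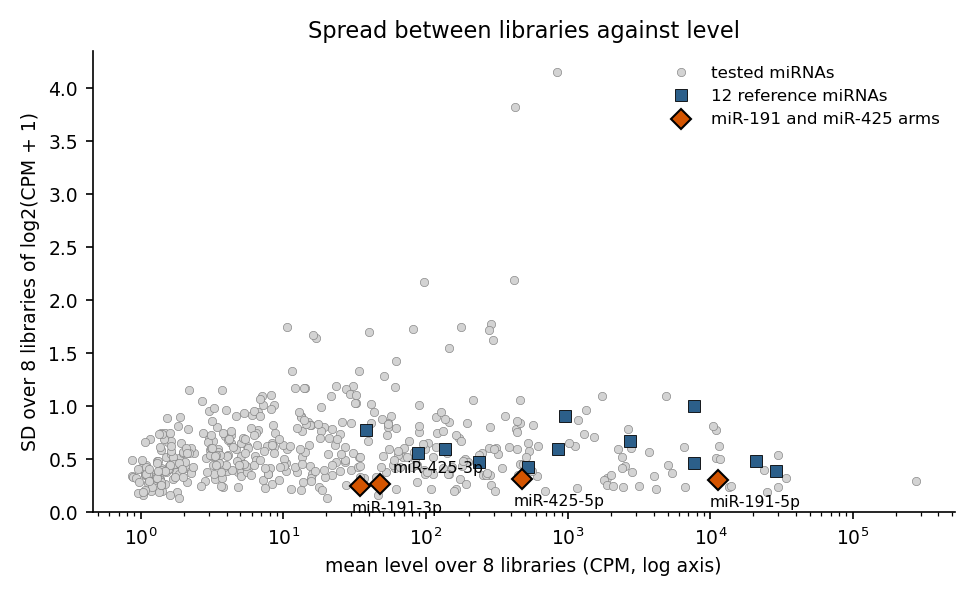
SD over 8 libraries of log2(CPM + 1) against the mean level in CPM (log axis) for 475 tested miRNAs (grey), 12 reference miRNAs (blue squares) and the members (orange diamonds). The members lie at SDs of 0.25 to 0.31, under all 12 squares, at levels from 34.4 to 11278 CPM.

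The libraries also list tags under the Rfam family mir-425, apart from the mature members. Which bases of the hairpin they cover is not given in the sources used here. They had 8.29, 6.68, 9.59 and 7.42 CPM in the KO livers, against 11.5, 9.60, 16.0 and 16.1 CPM in the WT livers. Every KO liver was below every WT liver, as for 4 of 169 Rfam entries (2.37%), while 1 of the 169 (0.592%) had every KO liver above every WT liver. The nearest values of this entry, in KO replicate 3 and WT replicate 2, were 0.01 CPM apart. That is less than 1 tag was worth, so the separation was almost a tie. In limma over all small RNAs the log2 fold change was -0.65 (SE 0.31, unadjusted p = 0.0670, adjusted p = 0.985), so it did not pass the test. This entry was singled out after its values were seen. The Rfam family of the other hairpin, Mir191, had 0 CPM in every library but WT replicate 4, where it had 0.05 CPM.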

How the data were processed

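Small RNAs of 18 to 30 bases from 8 livers were sequenced on the BGISEQ-500 platform. The authors removed contaminant and low-quality tags and mapped the rest with Bowtie (version not given) to GRCm38. The deposited values are CPM, headed TPM by the authors, over all small RNA classes (the file of KO replicate 1 lists no genomic classes), rounded to 2 decimals. How tags with several matches were counted is not given in the sources used here. The members and lists were chosen with earlier results of these data known.

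The total of each library was taken as the number under which all its values became whole tags (tolerance 0.0051 CPM), and was used for depth only. A miRNA missing from a file was set to 0, and 475 with at least 1 CPM in at least 4 libraries were tested. log2(CPM + 1) values were fitted with limma 3.58.1 in R 4.3.3, with its trend option, on a scale that understates changes of low miRNAs, and with Benjamini-Hochberg adjustment over the 475 and a threshold of 0.05. The authors compared genotypes with DEGseq, which leaves out the spread between mice. For ratios and correlations, two-sided exact permutation tests were used. The fits were tested on simulated data with independent noise, which does not cover differences shared by a set of libraries. Mature sequences were from RefSeq and gene models from GENCODE M21; hairpins were folded with RNAfold 2.7.2. Named were the members, the 5 miRNAs most like each 5p arm, and miRNAs with a shared seed. The protocol names no molecular identifiers, so the depth speaks to counting error only.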

Additional observations from a re-analysis of the deposited data

How the results depend on the processing

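No member was called under any of the 17 alternatives fitted with limma. The log2 fold changes of miR-425-5p and miR-425-3p kept their sign in all 17. Those of miR-191-5p and miR-191-3p, close to 0, changed sign with median-ratio scaling (0.0425 and 0.0602), with scaling to the known miRNA tags (0.0028 and 0.0211) and in 4 of 8 fits without 1 library. Without 1 library they ran from -0.17 to 0.0514 and from -0.13 to 0.0684. Of the 475 tested, 0 were called by limma, with 20 at an unadjusted p under 0.05, 11 of them higher in KO. That count was 1 with the library set as a covariate, where 65 had an unadjusted p under 0.05 (26 higher), and 0 to 1 without 1 library, where the 1 came without WT replicate 2; the cause was not tested.

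The KO minus WT difference of the miR-191 arm ratio was 0.31 within the lower-share and -0.35 within the higher-share libraries, and -0.24 to 0.17 without 1 library. That of miR-425 was -0.11 within the lower-share and 0.0723 within the higher-share libraries, and -0.13 to 0.14 without 1 library. The ratio of miR-191-5p to miR-425-5p kept its sign in all 12 alternatives. With scaling to the known miRNA tags, which divides by the quantity that defined the library sets, r of miR-191-5p with miR-425-5p was 0.83 (exact permutation adjusted p = 0.0375). On that scale r was 0.20 for miR-191-5p with miR-191-3p and 0.12 for miR-191-3p with miR-425-5p. With median-ratio scaling these r were 0.19, -0.74 and -0.69. Without 1 library the r of the miR-191 arms was -0.82 to -0.34, the lowest without WT replicate 3. For miR-191-3p with miR-425-3p, r was -0.58 to 0.32 without 1 library, the lowest without WT replicate 3.

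Libraries with the same replicate number did not deviate together (correlations -0.46, 0.35, -0.53 and 0.07). With the replicate block the log2 fold changes were -0.05, -0.03, -0.34 and -0.32 (limma adjusted p = 0.984 each), 0 of 475 were called and 15 had an unadjusted p under 0.05; the ratio differences were -0.02, -0.02 and 0.29. Fits with limma-voom and edgeR were not run. The recovered totals made all values whole tags within the rounding tolerance, but a separate unit check did not accept them as whole reads for most libraries.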
